A study of Homo sapiens with 14 samples.

Results

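The human HOXD cluster holds 9 coding genes, HOXD1, HOXD3, HOXD4, HOXD8, HOXD9, HOXD10, HOXD11, HOXD12 and HOXD13, and their RNA was followed in NT2 cells driven along separate courses of differentiation. The members were chosen by name, through gene symbols matched to Ensembl identifiers, and are 9 of the 25952 genes of the count table. All 9 passed the filter on low counts and were tested. NT2 is an established human embryonal carcinoma line, a tumour-derived relative of the pluripotent cell that can be turned into neurons and other cells. The 14 libraries of total RNA form 7 groups of 2. They are NT2 cells after 5, 10 and 21 days with all-trans retinoic acid (RA), which the study used to induce neurons, after 5, 10 and 21 days with bone morphogenetic protein 2 (BMP2), which it used to induce muscle, and untreated NT2 cells at day 0. All cultures share the line and a medium with fetal bovine serum. RA was added in DMSO. The labels name an earlier and a later BMP2 concentration without saying which library received which. Each comparison with day 0 joins an agent with a time in culture, and these cannot be told apart, since no untreated culture of a later day was analysed here. The labels do not say whether the replicates of a group were separate cultures, and p-values then measure only the spread between these samples.

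HOX genes encode homeodomain transcription factors that give cells of the trunk, hindbrain, limbs and genitalia their position along the body axis. Within a cluster, genes at the 3′ end act in the hindbrain and neck, and genes at the 5′ end in the lower trunk and, for HOXD, in the limb and the digits. RA opens HOX clusters in embryonal carcinoma cells, the 3′ genes before the 5′ genes, a textbook case of temporal collinearity. The proteins bind DNA with PBX, MEIS and PKNOX (PREP) cofactors. In the text below, HOXD1, HOXD3, HOXD4 and HOXD8 are called the 3′ genes, and HOXD9 to HOXD13 the 5′ genes.

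Promoter sequences show what the members share before any value is considered. RefSeq promoter entries on GRCh38.p14 matched 8 of the 9 genes, with none for HOXD9. All 8 lie on the + strand of chromosome 2. The 250 bases before the start site are printed for HOXD1, HOXD4, HOXD10 and HOXD13. HOXD1 and HOXD4 were called higher in RA than in BMP2 at all 3 days. Per exonic kb, HOXD10 was the HOX gene with the highest level at each BMP2 day, and HOXD13 that in untreated cells. Capitals mark matches to the searched motifs on either strand, which in these 4 promoters are the pentamer CCAAT, or its reverse complement on the other strand, and in HOXD13 also a pair of overlapping matches to TATAAA, 1 on each strand.
HOXD1 (chr2:176188418-176188667): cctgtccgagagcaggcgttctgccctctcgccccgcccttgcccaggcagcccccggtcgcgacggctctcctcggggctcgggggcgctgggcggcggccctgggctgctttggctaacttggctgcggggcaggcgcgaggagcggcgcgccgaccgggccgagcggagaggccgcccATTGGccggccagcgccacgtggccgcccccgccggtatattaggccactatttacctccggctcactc
HOXD4 (chr2:176151300-176151549): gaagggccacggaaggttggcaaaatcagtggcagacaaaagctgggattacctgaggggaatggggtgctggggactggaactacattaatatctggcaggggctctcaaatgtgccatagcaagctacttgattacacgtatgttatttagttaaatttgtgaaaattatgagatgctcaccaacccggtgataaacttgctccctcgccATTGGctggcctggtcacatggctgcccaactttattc
HOXD10 (chr2:176116528-176116777): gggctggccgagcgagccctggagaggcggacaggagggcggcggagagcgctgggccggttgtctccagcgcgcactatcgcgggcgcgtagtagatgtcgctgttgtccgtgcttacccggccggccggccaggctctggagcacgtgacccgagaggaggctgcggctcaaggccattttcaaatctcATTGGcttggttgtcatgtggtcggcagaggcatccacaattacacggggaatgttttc
HOXD13 (chr2:176092471-176092720): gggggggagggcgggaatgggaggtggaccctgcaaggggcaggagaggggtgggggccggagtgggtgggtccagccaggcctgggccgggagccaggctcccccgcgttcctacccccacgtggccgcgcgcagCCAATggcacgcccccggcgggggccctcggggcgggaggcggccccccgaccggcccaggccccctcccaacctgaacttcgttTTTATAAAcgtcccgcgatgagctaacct
The pentamer CCAAT, on either strand, was found in 6 of the 8 promoters (HOXD1, HOXD3, HOXD4, HOXD10, HOXD12 and HOXD13), and 32.0% of all 35093 promoters of the same length hold it. TATAAA was found in HOXD13 alone among the 8 and in 10.72% of all promoters. The nuclear receptor core site AGGTCA was in 0 of the 8 and in 12.08% of all promoters, and the SMAD palindrome GTCTAGAC in 0 of the 8 and in 0.18% of all. TGATNNAT, the bipartite PBX-HOX site, was in HOXD11 alone and in 6.48% of all promoters. A match or its absence describes these letters in this window and no more. The base composition differed among the members. HOXD1 was 74.8% G and C with 31 CpG dinucleotides and HOXD13 was 74.0% with 21. HOXD10 was 64.0% with 23, while HOXD4 was 47.6% with 4, against medians of 58.0% and 11 over all promoters.

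Neighbouring genes share sequence in this cluster, which bears on how reads were assigned. In GENCODE v29, HOXD4 (ENSG00000170166) lies wholly within the span of HOXD3 (ENSG00000128652). HOXD8 (ENSG00000175879) and HOXD9 (ENSG00000128709) lie wholly within the span of the antisense gene HOXD-AS2. HOXD1 (ENSG00000128645) has 16.3% of its span inside HAGLR, another antisense gene. HOXD3 has 26.1% of its span inside the antisense genes HAGLR and HOXD-AS2, and 14.5% of its exonic sequence lies in exons of other genes. HOXD10 (ENSG00000128710) and HOXD11 (ENSG00000128713) share exonic sequence, 16.8% and 21.4% of each. HOXD12 (ENSG00000170178) and HOXD13 (ENSG00000128714) overlap no other gene of the table. The sources used here give neither the strand setting of the counting nor whether introns were counted. Reads that fall in a member and in an antisense gene cannot be told apart without the strand setting. All members lie on the + strand, so it would not separate HOXD3 from HOXD4 or HOXD10 from HOXD11. The exons of HOXD4, HOXD8 and HOXD9 share 0.0% of their sequence with exons of other genes. Their overlaps therefore bear on the counts only if introns were counted. The counts of the 7 genes from HOXD1 to HOXD11 are uncertain to that extent.

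Total counts ran from 45773278 to 75754396 per library. Values are CPM, counts scaled to library size after TMM normalization, and comparisons of levels between genes use CPM per kilobase of exon. The marker lists followed the labels in part. The 6 pluripotency markers summed to 159 and 162 CPM at RA day 21 and 167 and 163 CPM at BMP2 day 21, against 5430 and 6080 CPM in untreated cells. The 7 neuronal markers in the table were highest at RA day 10 (1050 and 719 CPM). The 5 smooth muscle markers ran from 338 to 1280 CPM in BMP2, 40.4 to 286 CPM in RA and 35.3 to 88.8 CPM in untreated libraries. The 5 cardiac markers ran from 225 to 2000 CPM in BMP2, 37.3 to 113 CPM in RA and 29.1 to 59.1 CPM in untreated libraries. The 5 skeletal muscle markers stayed under 10 CPM in all libraries. The 5 neural progenitor markers had 753 and 831 CPM at RA day 5 and 619 and 922 CPM at BMP2 day 5. At day 21 they had 302 and 280 CPM in RA and 16.7 and 27.1 CPM in BMP2, against 388 and 436 CPM in untreated cells. The 5 fibroblast and matrix markers reached 32900 and 31500 CPM at BMP2 day 21, against 5770 and 5800 CPM at RA day 21. Markers of lineages that the labels do not name were higher as well. The 5 trophoblast and amnion markers ran from 108 to 453 CPM in BMP2 and 24.9 to 192 CPM in RA libraries. Untreated libraries had at most 16.2 CPM of them. The 3 endoderm markers ran from 2.05 to 10.3 CPM in BMP2 libraries. They had at most 1.1 CPM in RA and at most 0.0557 CPM in untreated libraries. The BMP2 day 10 replicates were the least alike (r = 0.918 across genes, against 0.964 to 0.99 in the other groups), with 1550 and 13600 CPM of matrix markers and 896 and 190 CPM of pluripotency markers. In such bulk samples, fewer cells of a type and less RNA per cell cannot be told apart.

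Untreated NT2 cells already held RNA of the 5′ end of the cluster. HOXD13, which patterns the digits and genitalia, led all 39 HOX genes in level with 3.06 CPM per exonic kb on average. HOXD10 came second with 1.08, a place that rests on exonic length. In the deposited RPKM, scaled to the gene span, HOXD10 averaged 0.2525 in untreated cells. HOXD12, HOXD9 and HOXD1 were above it there (0.3977, 0.3306 and 0.2882). Of the summed HOXD signal per exonic kb, the 5′ genes made up 96.1% and 89.9% in the untreated libraries. HOXD4 had 0 counts in both, and HOXD8 had 0.0811 and 0 CPM. Of the summed signal of the 4 HOX clusters, the HOXD cluster made up 10.2% to 12.5% in RA libraries and 37.2% to 64.5% in BMP2 libraries, against 75.8% and 81.4% in untreated cells. Both totals were nonetheless higher in every treated library. The 4 clusters summed to 9.159 and 6.65 CPM per exonic kb in untreated libraries, 39.4 to 70.6 in BMP2 and 486.2 to 553.2 in RA. HOXD summed to 6.945 and 5.416 in untreated libraries, 19.9 to 39.9 in BMP2 and 49.6 to 69.0 in RA.

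The 3′ genes and HOXD9 were called higher in RA from day 5 on, and HOXD10 and HOXD11 were called in RA at day 21. In BMP2, HOXD9, HOXD10 and HOXD11 were called from day 5. HOXD11 at day 21 missed the threshold here and passed it under several other settings. HOXD1 was called at no BMP2 day in this fit. HOXD9 was called higher in all 6 treated groups. HOXD12 and HOXD13 were called in none of these comparisons, although HOXD13 was under other settings, given with the gene. The following paragraphs give these genes in their order along the cluster, from the 3′ end.

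**Figure D1:**
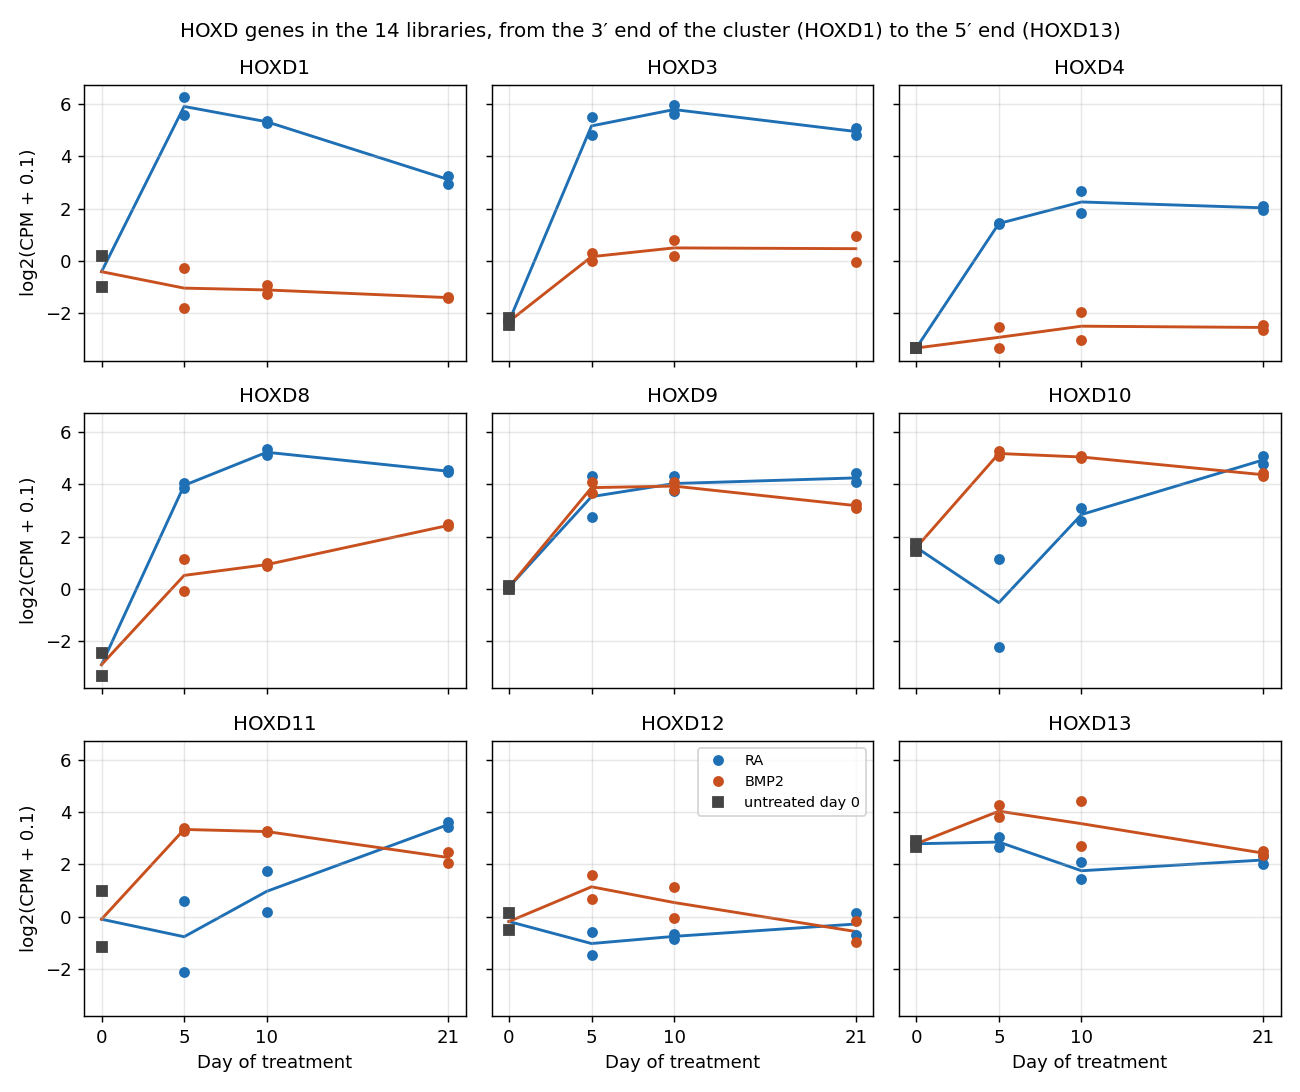
Level of each HOXD gene as log2(CPM + 0.1) against the day of treatment. Each point is a library, blue for RA, orange for BMP2 and dark grey squares for untreated day 0, and lines join group means on the log scale. HOXD1, HOXD3, HOXD4 and HOXD8 are higher in RA than in BMP2 at all 3 days, and the curves of HOXD10 and HOXD11 cross between day 10 and day 21.

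HOXD1, the most 3′ gene and one active in the hindbrain and in sensory neurons, held 0.406 and 1.03 CPM in untreated cells at day 0, 47.4 and 76.3 CPM at RA day 5, 39.0 and 41.1 CPM at RA day 10, and 9.55 and 7.71 CPM at RA day 21. In BMP2 libraries it held 0.19 and 0.723 CPM at day 5, 0.426 and 0.313 CPM at day 10, and 0.287 and 0.273 CPM at day 21. Every RA library lay above every untreated library, and RA levels were highest at day 5. The log2 fold changes over untreated cells were 6.40 ± 0.63 at RA day 5, 5.78 ± 0.62 at RA day 10 and 3.56 ± 0.56 at RA day 21 (fitted SE, edgeR quasi-likelihood test with Benjamini-Hochberg adjustment, adjusted p from 0.00043 to 0.00085). No BMP2 comparison was called in this fit. The lowest was -1.37 ± 0.59 at BMP2 day 21, where the libraries did not overlap with the untreated ones (adjusted p = 0.082). That difference was called as lower in DESeq2 (-1.41, adjusted p = 0.0406) and in edgeR without untreated replicate 1 (-1.87) or without either BMP2 day 5 library. HAGLR, the antisense gene whose span overlaps that of HOXD1, moved alongside it. HAGLR had 145 and 229 CPM at RA day 5, 157 and 172 CPM at RA day 10 and 78.0 and 66.8 CPM at RA day 21, against 7.69 and 8.45 CPM in untreated cells, and was called higher at each RA day. Over the 14 libraries, HOXD1 and HAGLR correlated with r = 0.979 on log2(CPM + 1), a description of libraries that share treatment groups. The part that reads shared by the pair may have in this was not tested.

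HOXD3, which in mice shapes the first neck vertebrae, held 0.122 and 0.0835 CPM in untreated cells at day 0, 28.3 and 45.4 CPM at RA day 5, 49.8 and 61.7 CPM at RA day 10, and 33.6 and 28.4 CPM at RA day 21. BMP2 libraries held 0.913 and 1.15 CPM at day 5, 1.65 and 1.05 CPM at day 10, and 1.87 and 0.882 CPM at day 21. Every treated library lay above both untreated ones, and every RA library above every BMP2 library. The log2 fold changes over untreated cells were 8.49 ± 0.53, 9.09 ± 0.54 and 8.24 ± 0.53 at RA days 5, 10 and 21, and 3.34 ± 0.48, 3.73 ± 0.48 and 3.75 ± 0.48 at BMP2 days 5, 10 and 21 (adjusted p from 2.8e-05 to 0.0012). At BMP2 day 10 the adjusted p was 0.0545 when only the 4 libraries compared were fitted. In limma on log2(RPKM + 0.1) of the deposited RPKM, which is scaled to the whole gene span, the BMP2 changes were 0.31, 0.40 and 0.39 and were not called. HOXD3 averaged 0.00275 RPKM in untreated cells and 0.027, 0.036 and 0.035 at BMP2 days 5, 10 and 21. All lie below the added 0.1, which compresses such changes, so this fit cannot decide whether HOXD3 rose.

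HOXD4, a hindbrain gene with an RA-responsive neural enhancer in mice, had no count in untreated cells, and held 2.56 and 2.65 CPM at RA day 5, 3.52 and 6.24 CPM at RA day 10, and 4.2 and 3.81 CPM at RA day 21. Against a floor of 3 counts over the untreated group, which covers counting error only, the RA levels were at least 110-fold, 200-fold and 160-fold higher at days 5, 10 and 21. Most counts from 1 to 19 were even in every library, and if read pairs were counted as 2 this floor may be too low and these folds too high, which was not tested. All 3 RA comparisons were called (adjusted p = 0.0046, 0.0016 and 0.0006), although that of day 5 was 0.0513 without untreated replicate 2. In BMP2 libraries HOXD4 was near the floor, with 4, 10 and 7 counts over both libraries at days 5, 10 and 21. The calls at BMP2 days 10 and 21 (adjusted p = 0.038 and 0.045) rest on those counts, and each was lost without any one of 10 libraries, with adjusted p up to 0.237 and 0.162. At day 10 these were all but RA day 10 replicate 1, BMP2 day 10 replicate 2 and the BMP2 day 5 libraries, and at day 21 all but the BMP2 libraries of days 5 and 10. Neither was called with the replicate number as a block (adjusted p = 0.0543 and 0.0578).

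HOXD8, a trunk gene in the middle of the cluster, held 0.0811 and 0 CPM in untreated cells at day 0, 16.6 and 14.4 CPM at RA day 5, 40.3 and 34.6 CPM at RA day 10, and 23.2 and 21.9 CPM at RA day 21. BMP2 libraries held 0.837 and 2.09 CPM at day 5, 1.74 and 1.88 CPM at day 10, and 5.42 and 5.16 CPM at day 21. It was the one HOXD gene with both BMP2 day 21 libraries above all BMP2 libraries of the earlier days. The log2 fold changes over untreated cells were 8.72 ± 0.80, 9.99 ± 0.83 and 9.26 ± 0.81 in RA and 5.33 ± 0.77, 5.62 ± 0.77 and 7.17 ± 0.78 in BMP2, at days 5, 10 and 21 (adjusted p from 8e-05 to 0.0012). These sizes rest on 4 counts in untreated cells, all in replicate 1. Without untreated replicate 1 they were 12.83, 14.10 and 13.37 in RA and 9.43, 9.73 and 11.28 in BMP2. These depend on the prior count, since the untreated library left had 0 counts. Without replicate 2 they were 7.54, 8.81 and 8.08 in RA and 4.14, 4.44 and 5.99 in BMP2. All were called in both runs. With only the 4 libraries compared, the call at BMP2 day 10 was lost (adjusted p = 0.0778).

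HOXD9, a gene of the lower trunk and limb bud, held 0.994 and 0.905 CPM in untreated cells at day 0, 19.7 and 6.62 CPM at RA day 5, 19.9 and 13.2 CPM at RA day 10, and 21.2 and 16.8 CPM at RA day 21. BMP2 libraries held 12.7 and 16.7 CPM at day 5, 17.0 and 13.5 CPM at day 10, and 9.48 and 8.54 CPM at day 21. All 12 treated libraries lay above both untreated ones, and the treated groups overlapped one another along most of their order, which ran from RA day 21 down to BMP2 day 21. The log2 fold changes over untreated cells were 3.79 ± 0.49, 4.12 ± 0.49 and 4.32 ± 0.50 in RA and 3.95 ± 0.49, 4.01 ± 0.49 and 3.25 ± 0.48 in BMP2, at days 5, 10 and 21 (adjusted p from 0.00019 to 0.0019), and each kept its call with any 1 library left out. HOXD-AS2, whose span covers HOXD8 and HOXD9, was itself called higher in all 6 treated groups, at no more than 4.86 CPM in any library.

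HOXD10, known in mice for lumbar motor neurons and the limb, held 3.22 and 2.62 CPM in untreated cells at day 0, 2.14 and 0.117 CPM at RA day 5, 8.38 and 5.99 CPM at RA day 10, and 33.7 and 27.5 CPM at RA day 21. BMP2 libraries held 34.2 and 38.2 CPM at day 5, 34.0 and 31.8 CPM at day 10, and 19.8 and 21.3 CPM at day 21. Both RA day 5 libraries lay below the untreated ones, and both RA day 21 libraries above the BMP2 day 21 ones. RA changes over untreated cells were -1.40 ± 0.80 at day 5 (adjusted p = 0.32), 1.30 ± 0.77 at day 10 (adjusted p = 0.24) and 3.39 ± 0.82 at day 21 (adjusted p = 0.0078). BMP2 changes were 3.63 ± 0.83, 3.50 ± 0.82 and 2.81 ± 0.80 at days 5, 10 and 21 (adjusted p from 0.009 to 0.016). The RA day 10 difference was called with only the 4 libraries compared (1.33, adjusted p = 0.034), in limma on log2(RPKM + 1) and log2(RPKM + 0.1) (adjusted p = 0.0267 and 0.0387) and without either RA day 5 library. The RA day 5 difference was called as lower without RA day 5 replicate 1 (-4.62) and was -0.43 without replicate 2. The calls over untreated cells were lost at RA day 21 without untreated replicate 2 (adjusted p = 0.0655) and at all 3 BMP2 days without either untreated replicate (adjusted p up to 0.1003).

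HOXD11, which in mice builds the forearm bones together with its HOXA paralog, was next in line and held 1.87 and 0.348 CPM in untreated cells at day 0, 1.4 and 0.131 CPM at RA day 5, 3.27 and 1.04 CPM at RA day 10, and 12.2 and 10.7 CPM at RA day 21. BMP2 libraries held 10.3 and 9.73 CPM at day 5, 9.46 and 9.5 CPM at day 10, and 5.42 and 4.09 CPM at day 21. It followed HOXD10 closely (r = 0.953 over the 14 libraries), a gene with which it shares exonic sequence. It was called at RA day 21 (3.39 ± 1.00, adjusted p = 0.02) and at BMP2 days 5 and 10 (3.19 ± 0.99 and 3.11 ± 0.99, adjusted p = 0.036 and 0.033), while BMP2 day 21 had 2.12 ± 0.96 (adjusted p = 0.094). The BMP2 day 21 difference was called with the replicate number as a block (2.41, adjusted p = 0.037), with only the 4 libraries compared (2.08, adjusted p = 0.04997), in DESeq2 (2.08, adjusted p = 0.0397) and in limma on log2(RPKM + 1) and log2(RPKM + 0.1) (adjusted p = 0.0154 and 0.0293). It was also called without untreated replicate 1 (3.76) or without either RA day 5 library. Calls of this gene depended on single libraries. The RA day 21 call was lost without untreated replicate 2 or either RA day 21 library (2.62 to 5.04 over all runs, adjusted p up to 0.119), the BMP2 day 5 call without any one of 7 libraries (untreated replicate 2, either BMP2 day 5 or day 21 library or either RA day 21 library; 2.42 to 4.84, up to 0.186) and the BMP2 day 10 call without untreated replicate 2 or BMP2 day 10 replicate 2 (2.34 to 4.76, up to 0.173).

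HOXD12, a digit gene, was low throughout, with 0.994 and 0.612 CPM in untreated cells at day 0, 0.57 and 0.263 CPM at RA day 5, 0.457 and 0.536 CPM at RA day 10, and 1.02 and 0.512 CPM at RA day 21. BMP2 libraries held 1.52 and 2.92 CPM at day 5, 2.09 and 0.872 CPM at day 10, and 0.411 and 0.798 CPM at day 21. Every neighbouring pair in the order of its group means overlapped. The changes over untreated cells ran from -0.95 ± 0.68 at RA day 5 to 1.47 ± 0.67 at BMP2 day 5 (adjusted p of 0.12 or more).

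HOXD13, at the 5′ end of the cluster, whose mutations fuse and duplicate human digits, held 7.44 and 6.26 CPM in untreated cells at day 0, 8.12 and 6.3 CPM at RA day 5, 4.17 and 2.59 CPM at RA day 10, and 4.0 and 4.85 CPM at RA day 21. BMP2 libraries held 13.9 and 19.2 CPM at day 5, 21.3 and 6.41 CPM at day 10, and 5.01 and 5.63 CPM at day 21. BMP2 day 5 lay above the untreated range without being called (1.27 ± 0.48, adjusted p = 0.072), and it was called in DESeq2 (1.25, adjusted p = 0.038), with only the 4 libraries compared (1.31, adjusted p = 0.0165) and without both BMP2 day 10 libraries (1.30, adjusted p = 0.00759) or either of them. HOXD13 was called as lower at RA day 10 without both BMP2 day 10 libraries (-0.98, adjusted p = 0.031) or either of them, and at RA day 21 with only the 4 libraries compared (-0.68, adjusted p = 0.0381). At BMP2 day 10 one replicate stood with the day 5 libraries and the other with the untreated ones, and these replicates had 896 and 190 CPM of pluripotency markers, whose part in this was not tested. Without BMP2 day 10 replicate 2, HOXD13 was called higher at that day (1.63).

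Counted by comparison with untreated cells, RA called 5 of the 9 genes higher at day 5 and 0 lower, where 5.59% of the 19142 genes tested were called higher and 2.72% lower. At RA day 10 the count was again 5 higher and 0 lower (12.9% and 11.1% of all genes), and at RA day 21 it was 7 and 0 (23.4% and 21.1%). BMP2 called 5 higher and 0 lower at day 5 (15.9% and 13.4% of all genes), 6 and 0 at day 10 (19.8% and 16.4%) and 5 and 0 at day 21 (25.0% and 22.1%). The median log2 fold change of the 9 genes was 3.79, 4.12 and 3.56 at RA days 5, 10 and 21 and 3.34, 3.50 and 2.81 at BMP2 days 5, 10 and 21, against medians over all genes between -0.0016 and 0.096. All 6 comparisons share the untreated libraries. Without untreated replicate 2, BMP2 called 3 of the 9 at each day. At BMP2 day 10, 2 were called when only the 4 libraries compared were fitted, and at BMP2 day 21, 3 were called in limma on log2(RPKM + 0.1) without a filter.

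**Figure D2:**
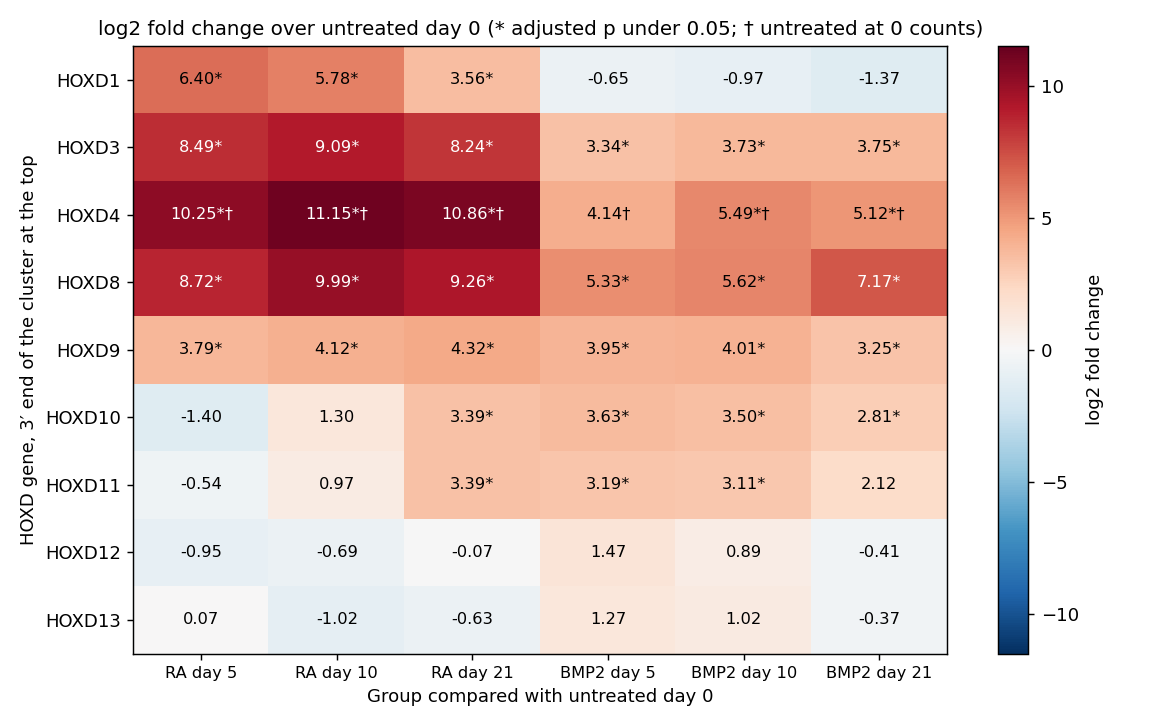
Log2 fold change of each HOXD gene in the 6 treated groups over untreated day 0, with the 3′ end of the cluster at the top. An asterisk marks an adjusted p under 0.05, and a dagger marks HOXD4, whose fitted values depend on the prior count because untreated cells had 0 counts. RA calls fill the rows from HOXD1 to HOXD9 at all 3 days and reach HOXD10 and HOXD11 at day 21 alone in this fit over all 14 libraries.

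RA against BMP2 on the same day asks how the courses differ at equal time in culture, with no untreated libraries in the contrast. At day 5 the cluster split by position. The 4 genes from HOXD1 to HOXD8 were called higher in RA, and 3 of the 5′ genes, HOXD10, HOXD11 and HOXD12, were called lower, where 5.97% of all genes were called higher and 6.25% lower. HOXD1 had a log2 fold change of 7.05 ± 0.66 (adjusted p = 0.00073), HOXD3 of 5.16 ± 0.43, HOXD4 of 6.11 ± 1.07 and HOXD8 of 3.40 ± 0.57. HOXD9 stood at -0.16 ± 0.43 (adjusted p = 0.85), with libraries that overlap. HOXD10 had -5.04 ± 0.89 (adjusted p = 0.0076), HOXD11 -3.73 ± 1.02 (adjusted p = 0.042), HOXD12 -2.42 ± 0.69 (adjusted p = 0.048) and HOXD13 -1.20 ± 0.48 (adjusted p = 0.13). HOXD13 was called without either or both of the BMP2 day 10 libraries (-1.20 without both, adjusted p = 0.019). The HOXD10 value was -8.25 without RA day 5 replicate 1 and -4.08 without replicate 2. That of HOXD4 was 10.26 without BMP2 day 5 replicate 1, which depends on the prior count, since the BMP2 day 5 library left had 0 counts. All of these were called. The HOXD12 call was lost without any one of 12 libraries, all but those of BMP2 day 10 (adjusted p up to 0.288). That of HOXD11 was lost without RA day 5 replicate 2 or any one library of RA day 21, BMP2 day 5 or BMP2 day 21 (adjusted p up to 0.181). With only the 4 libraries compared, 4 of the 9 were called, the 5′ genes having adjusted p of 0.05001 for HOXD10, 0.0719 for HOXD11 and 0.0727 for HOXD12.

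The RA day 5 replicates stood apart in HOXD9, HOXD10 and HOXD11. Replicates 1 and 2 held 19.7 and 6.62 CPM of HOXD9, 2.14 and 0.117 CPM of HOXD10 and 1.4 and 0.131 CPM of HOXD11, beside 47.4 and 76.3 CPM of HOXD1, 28.3 and 45.4 CPM of HOXD3, 16.6 and 14.4 CPM of HOXD8 and 8.12 and 6.3 CPM of HOXD13. The 5′ genes made up 28.6% of the summed HOXD signal per exonic kb in replicate 1 and 10.2% in replicate 2. Marker lists also differed between these replicates, in both directions. Replicates 1 and 2 had 322 and 57.2 CPM of the 5 fibroblast and matrix markers and 258 and 40.4 CPM of the 5 smooth muscle markers. They had 192 and 64.2 CPM of the 5 trophoblast and amnion markers and 113 and 37.3 CPM of the 5 cardiac markers. Replicate 2 was the higher in pluripotency (1580 and 2370 CPM), neuronal (214 and 274 CPM) and neural progenitor markers (753 and 831 CPM). The same held for skeletal muscle (5.53 and 6.05 CPM) and endoderm markers (0.163 and 0.788 CPM). The part of these markers in the HOXD values was not tested. Without RA day 5 replicate 1 the HOXD11 difference to BMP2 was -6.23, and without replicate 2 it was -2.84.

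At day 10, RA stood above BMP2 in the same 4 genes of the 3′ side and below it in 1 gene, HOXD13, where 5.11% of all genes were called higher and 5.73% lower. The log2 fold changes were 6.74 ± 0.65 for HOXD1, 5.36 ± 0.44 for HOXD3, 5.66 ± 1.00 for HOXD4 and 4.37 ± 0.59 for HOXD8 (adjusted p from 0.00042 to 0.011). HOXD10 and HOXD11 had -2.20 ± 0.78 (adjusted p = 0.098) and -2.14 ± 0.95 (adjusted p = 0.17), with no overlap between the libraries. HOXD10 was called as lower in RA with no low-count filter (-2.19, adjusted p = 0.048), in DESeq2 (-2.21, adjusted p = 0.0223), in the 3 limma fits on RPKM (adjusted p from 0.00107 to 0.0271) and without either RA day 5 library, and HOXD11 in limma on log2(RPKM + 1) (adjusted p = 0.0105). HOXD13 had -2.04 ± 0.49 (adjusted p = 0.03), and its call was lost without BMP2 day 10 replicate 1 (-0.92, the smallest size of all such runs), either RA day 10 library or either RA day 21 library (adjusted p up to 0.175). With only the 4 libraries compared, 1 of the 9 genes was called, HOXD1.

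At day 21 RA again stood above BMP2 in HOXD1, HOXD3, HOXD4 and HOXD8 and below it in 0 genes, where 5.99% of all genes were called higher and 6.07% lower. The log2 fold changes were 4.93 ± 0.62 for HOXD1, 4.49 ± 0.42 for HOXD3, 5.74 ± 1.02 for HOXD4 and 2.09 ± 0.53 for HOXD8 (adjusted p from 0.00074 to 0.033). The 5′ genes ran from -0.26 ± 0.48 for HOXD13 to 1.27 ± 0.92 for HOXD11, and none was called, although both RA libraries lay above both BMP2 libraries for HOXD9, HOXD10 and HOXD11. Of the 4 calls, 2 were left without either BMP2 day 21 library or either RA day 21 library, since HOXD4 and HOXD8 then had adjusted p up to 0.0774 and 0.172. The HOXD8 call was also lost without any one library of RA day 5 or day 10. With only the 4 libraries compared, 7 of the 9 were called, HOXD9, HOXD10 and HOXD11 joining them as higher in RA (1.07, 0.57 and 1.26). HOXD10 and HOXD11 were also called in limma on log2(RPKM + 1) (adjusted p = 0.0168 and 0.00865), and HOXD9 without either RA day 5 library.

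**Figure D3:**
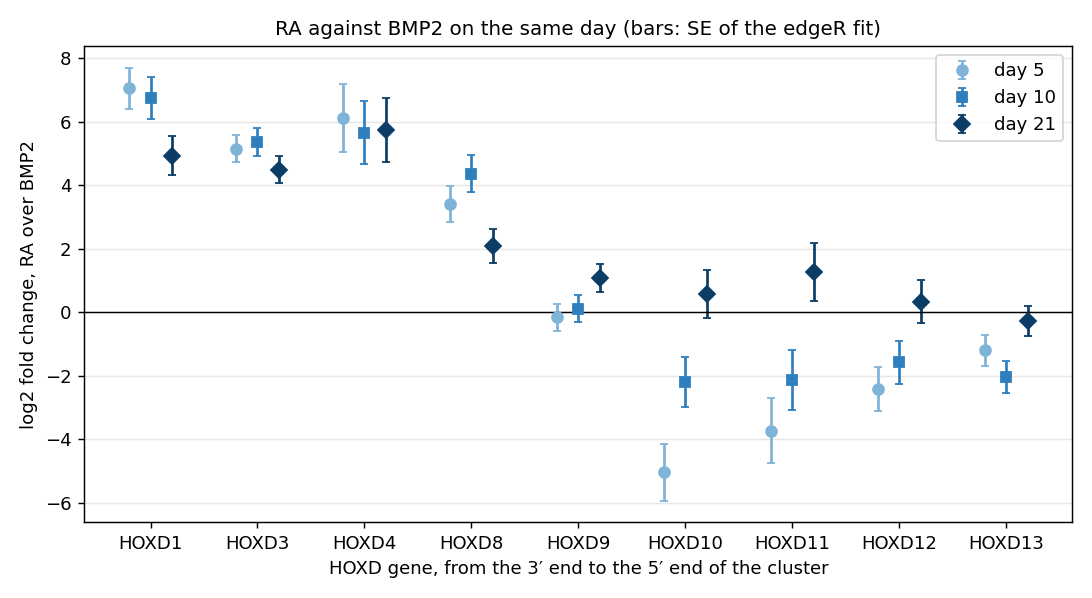
Log2 fold change of RA over BMP2 at days 5, 10 and 21 for the 9 genes in cluster order, with bars for the SE of the edgeR fit. The 4 genes from HOXD1 to HOXD8 lie above 0 at every day, HOXD9 is at -0.16 and 0.12 at days 5 and 10 and at 1.08 at day 21, and HOXD10 and HOXD11 move from below 0 at days 5 and 10 to above 0 at day 21.

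Position along the cluster ordered these differences. Spearman's rho between the place of a gene, counted from the 3′ end, and its RA over BMP2 change was -0.817 at day 5, -0.833 at day 10 and -0.9 at day 21, over 9 genes that share libraries, as a description. For RA over untreated cells it was -0.7, -0.85 and -0.783, and for BMP2 over untreated cells -0.217, -0.267 and -0.317, at days 5, 10 and 21.

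Day 21 against day 5 within a treatment asks how the cluster changed during the course. In RA, 2 genes rose and 1 fell, where 13.9% of all genes were called higher and 14.8% lower. HOXD10 had a log2 fold change of 4.79 ± 0.89 (adjusted p = 0.0045) and HOXD11 of 3.92 ± 1.03 (adjusted p = 0.019), while HOXD1 fell by 2.84 ± 0.53 on the log2 scale (adjusted p = 0.0046). The HOXD11 call was lost without RA day 5 replicate 2 or either RA day 21 library (adjusted p up to 0.077), and without RA day 5 replicate 1 its value was 6.43. Without that replicate HOXD10 had 8.01 and HOXD9 was called higher (1.52). HOXD3 had -0.25 ± 0.36, HOXD4 0.62 ± 0.78, HOXD8 0.54 ± 0.51 and HOXD9 0.53 ± 0.43, none of them called. In limma on log2(RPKM + 1), HOXD4 and HOXD8 were called as well (0.45 and 0.55), which makes 5 genes.

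In BMP2 the same comparison called 1 gene higher, HOXD8 (1.85 ± 0.54, adjusted p = 0.045), and 1 lower, HOXD13 (-1.64 ± 0.49, adjusted p = 0.048), where 7.77% of all genes were called higher and 7.75% lower. For 9 genes, these counts are near those shares, and both calls are marginal. That of HOXD8 was lost without any one of 10 libraries, all but those of untreated cells and BMP2 day 10 (1.34 to 2.64, adjusted p up to 0.204). That of HOXD13 was lost without any one of 12 libraries, all but those of BMP2 day 10 (adjusted p up to 0.181). The other 5′ genes were also lower at BMP2 day 21, HOXD10 at -0.82 ± 0.75, HOXD11 at -1.08 ± 0.92 and HOXD12 at -1.88 ± 0.68, without passing the test (adjusted p of 0.47, 0.44 and 0.084). HOXD10 was called with only the 4 libraries compared (-0.83, adjusted p = 0.0392) and without either RA day 5 library, HOXD10 and HOXD11 in limma on log2(RPKM + 1) (adjusted p = 0.0166 and 0.0354), and HOXD12 in DESeq2 (-1.89, adjusted p = 0.0285) and in limma on log2(RPKM + 0.1) (adjusted p = 0.0495).

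The change between day 5 and day 21 was compared directly between the treatments, as the RA change minus the BMP2 change in the same fit. This comparison was added after the data were seen. HOXD10 differed by 5.61 ± 1.14 on the log2 scale (adjusted p = 0.0435), the one call among the 9 genes, where 0.705% of all genes were called higher and 0.935% lower. HOXD11 had 5.00 ± 1.37 (adjusted p = 0.0919), HOXD12 2.76 ± 0.95 (adjusted p = 0.161) and HOXD1 -2.12 ± 0.80 (adjusted p = 0.191). The HOXD10 value stayed between 4.64 and 8.82 with any 1 library left out, the highest without RA day 5 replicate 1 (8.82), where that group rests on a replicate with 0.117 CPM. Its call was lost without any one of 10 libraries, where adjusted p reached 0.157, and was kept without a library of RA day 5 or BMP2 day 10. HOXD11 was called in DESeq2 (4.97, adjusted p = 0.00242), in the 3 limma fits on RPKM, with no low-count filter (adjusted p = 0.0354) and without RA day 5 replicate 1 (7.50), and HOXD1 in limma on log2(RPKM + 1) (-2.34, adjusted p = 0.0041).

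The make-up of the HOXD signal changed accordingly. Per exonic kb, HOXD1 alone made up 42.8% and 59.1% of it at RA day 5, 28.6% and 31.1% at RA day 10 and 8.31% and 7.86% at RA day 21. The 5′ genes made up 28.6% and 10.2% at RA day 5, 25.4% and 17.0% at RA day 10 and 55.3% and 54.0% at RA day 21. In BMP2 libraries the 5′ genes made up between 95.8% and 97.8% on days 5 and 10, and their share was 86.3% and 87.9% on day 21. HOXD10 was the HOX gene with the highest level of all 39 at each BMP2 day (13.4, 12.2 and 7.63 CPM per exonic kb). HOXD9 was second (7.86, 8.17 and 4.82). This order rests on exonic lengths, and introns may have been counted. In the deposited RPKM, scaled to the gene span, HOXD10 averaged 3.135, 2.823 and 1.704 at BMP2 days 5, 10 and 21. HOXD9 was above it at each day (5.153, 5.3 and 3.016), and HOXD13 at days 5 and 10 (5.272 and 4.429). At RA day 5 HOXD1 ranked 3 of 39 in level, with 31.3 CPM per exonic kb.

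**Figure D4:**
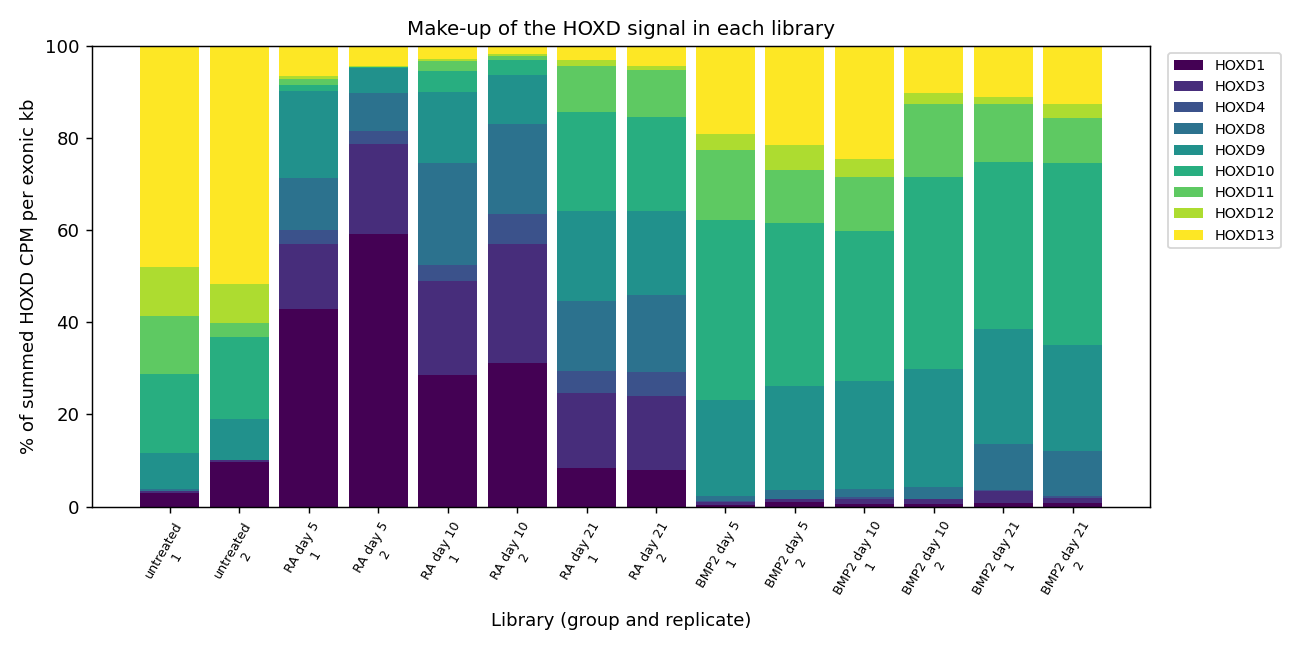
Share of each gene in the summed HOXD signal (CPM per exonic kb) of the 14 libraries, stacked from HOXD1 at the bottom to HOXD13 at the top. HOXD1 is the largest segment of both RA day 5 bars (42.8% and 59.1%), HOXD10 the largest of all BMP2 bars and HOXD13 the largest of both untreated bars (47.8% and 51.6%).

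The other HOX clusters, measured in the same libraries, were set beside HOXD. At day 21, some 5′ genes of HOXA and HOXC were called lower in RA than in BMP2, and others were not called. HOXA13 averaged 0.0149 CPM in RA and 22.4 CPM in BMP2 libraries (-10.42 ± 1.20, adjusted p = 0.0015), HOXA11 averaged 0.271 and 7.46 CPM (-4.77 ± 1.30, adjusted p = 0.045), and HOXC13 averaged 0.855 and 4.27 CPM (-2.32 ± 0.65, adjusted p = 0.045). HOXC11 had 0 counts at RA day 21 and averaged 3.62 CPM at BMP2 day 21. Not called were HOXA9 (0.99, adjusted p = 0.69), HOXA10 (-0.89, adjusted p = 0.76), HOXC9 (0.82, adjusted p = 0.7), and HOXC10 and HOXC12, which were at 0 CPM in RA day 21 libraries and averaged 0.281 and 0.209 CPM at BMP2 day 21 (adjusted p = 0.074 and 0.063). The 5′ genes of HOXB, HOXB9 and HOXB13, had 1.29 ± 0.71 and 1.44 ± 0.75 (adjusted p = 0.26 and 0.23). They were not called and lay above 0, as HOXD10 and HOXD11 did. HOXD11 and HOXD13 had 1.27 ± 0.92 and -0.26 ± 0.48 in that comparison, and the difference to their paralogs was not tested. HOXA11, HOXC13 and HOXB13 were chosen for these comparisons after their values were seen. Genes of groups 9 to 13 made up 50.6% and 49.4% of the summed HOXD CPM at RA day 21. In the same libraries such genes made up 7.97% and 9.1% of the summed HOXB CPM. Their share was 0.839% and 0.641% of the summed HOXA CPM and 1.73% and 1.93% of the summed HOXC CPM. HOXB13, unlike HOXD13, was called higher in RA than in BMP2 at day 5, with 29.2 CPM at RA day 5 and 1.99 CPM at BMP2 day 5 (3.87 ± 0.83, adjusted p = 0.017), with RA day 5 libraries of 48.2 and 10.2 CPM.

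**Figure D5:**
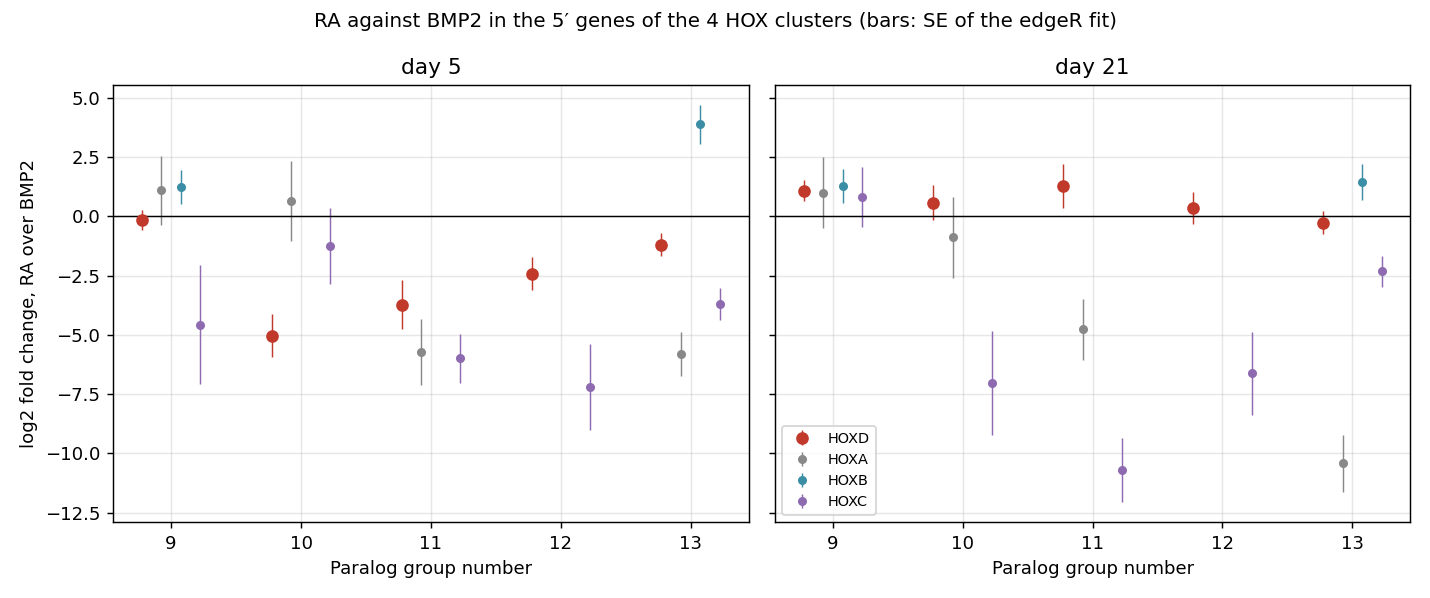
Log2 fold change of RA over BMP2 at day 5 (left) and day 21 (right) for the genes of paralog groups 9 to 13 in the 4 HOX clusters, with bars for the SE of the edgeR fit. At day 5 HOXD10 and HOXD11 (red) lie below 0 with HOXA11, HOXA13, HOXC11 and HOXC13, and at day 21 they lie above 0 while those 4 stay below it, HOXC11 at a fitted value that depends on the prior count because RA day 21 had 0 counts.

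Of 9 genes on either side of the cluster, RA called 1 higher at each day and 0, 2 and 2 lower at days 5, 10 and 21, where 5.59%, 12.9% and 23.4% of all genes were called higher and 2.72%, 11.1% and 21.1% lower. BMP2 called 2 higher at each day and 2, 3 and 3 lower, where 15.9%, 19.8% and 25.0% of all genes were called higher and 13.4%, 16.4% and 22.1% lower. EVX2, a homeobox gene beyond HOXD13, was called higher at BMP2 days 5 and 10 (4.32 ± 1.29 and 3.88 ± 1.27, adjusted p = 0.031 and 0.037), with 1.33 and 1.87 CPM at day 5 and 2.0 and 0.358 CPM at day 10, against 0.0406 and 0.111 CPM in untreated cells. LNPK, on the 5′ side, rose in all 6 comparisons, by 0.90 ± 0.17 at RA day 5 and 1.51 ± 0.17 at BMP2 day 21 on the log2 scale. MTX2, on the 3′ side, was called once against untreated cells, as lower at BMP2 day 5 (-0.49 ± 0.15, adjusted p = 0.037).

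Of the 9 PBX, MEIS and PKNOX genes, which encode cofactors of HOX proteins, 4 were called higher at RA day 5 and 6 at RA days 10 and 21, with 0 lower. Of all genes, 5.59%, 12.9% and 23.4% were called higher and 2.72%, 11.1% and 21.1% lower at these days. BMP2 called 4 higher and 1 lower at each day, where 15.9%, 19.8% and 25.0% of all genes were called higher and 13.4%, 16.4% and 22.1% lower. MEIS1 averaged 97.9, 141.8 and 203.3 CPM at RA days 5, 10 and 21 and 50.9, 47.6 and 36.3 CPM at BMP2 days 5, 10 and 21, against 0.434 CPM in untreated cells, and was called in all 6 groups. MEIS2 averaged 215.1 CPM at RA day 5 and 18.1 CPM at BMP2 day 5 (3.57 ± 0.43, adjusted p = 0.0017). PBX3, the gene called lower in BMP2, averaged 70.2 CPM at RA day 5 and 28.9 CPM at BMP2 day 5 (1.28 ± 0.20, adjusted p = 0.0046).

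Of 15 genes tested that act upstream of HOX clusters, RA called 4, 5 and 5 higher and 0, 0 and 3 lower at days 5, 10 and 21, and BMP2 called 2, 3 and 2 higher and 3 lower at each day. Of all genes, RA called 5.59%, 12.9% and 23.4% higher and 2.72%, 11.1% and 21.1% lower. BMP2 called 15.9%, 19.8% and 25.0% of all genes higher and 13.4%, 16.4% and 22.1% lower. The BMP2 counts of the list, and the RA count of lower genes at day 21, are near or below these shares. CDX1, a homeobox gene that binds HOX clusters, averaged 17.4 CPM at RA day 5 and 0.394 CPM at BMP2 day 5 (5.45 ± 0.94, adjusted p = 0.0067). RARB, an RA receptor gene that RA induces, rose in both treatments, with 5.78 ± 0.60 at RA day 5 and 5.65 ± 0.60 at BMP2 day 5 over untreated cells. CYP26A1, the RA-degrading enzyme, was called over untreated cells at all 3 RA days and at no BMP2 day, and had 485.0 CPM at RA day 5 and 17.3 CPM at BMP2 day 5 (4.81 ± 0.82, adjusted p = 0.0064).

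Genes of the limb bud and mesenchyme, where the 5′ HOXD genes act in development, were called higher over untreated cells in BMP2 in most of the list. Of 15 genes, BMP2 called 9, 10 and 9 higher and 0, 0 and 1 lower at days 5, 10 and 21, and RA called 3, 8 and 4 higher and 0 lower. Of all genes, BMP2 called 15.9%, 19.8% and 25.0% higher and 13.4%, 16.4% and 22.1% lower. RA called 5.59%, 12.9% and 23.4% of all genes higher and 2.72%, 11.1% and 21.1% lower, and the RA count of higher genes at day 21 is near that share. In the direct comparison RA had 3, 4 and 4 lower and 1, 2 and 0 higher, where 6.25%, 5.73% and 6.07% of all genes were called lower and 5.97%, 5.11% and 5.99% higher. PITX1, a hindlimb factor gene, averaged 6.39 CPM at RA day 5 and 125.6 CPM at BMP2 day 5 (-4.30 ± 1.02, adjusted p = 0.024), and TBX4, another hindlimb gene, averaged 0.727 and 22.5 CPM (-4.98 ± 0.97, adjusted p = 0.011). PRRX1, of limb mesenchyme, averaged 24.2 and 305.1 CPM (-3.66 ± 0.96, adjusted p = 0.036). At day 21, TBX4 was still lower in RA (-7.02 ± 1.08, adjusted p = 0.0048), while HOXD10 and HOXD11 were not called. Of 12 hindbrain and spinal cord genes tested, RA called 2, 5 and 3 higher and 0, 1 and 1 lower at days 5, 10 and 21, and BMP2 called 2, 3 and 4 higher and 1, 1 and 2 lower. The counts of BMP2 and of RA day 21 are near or below the shares of all genes given above for the comparisons with untreated cells. Directly against BMP2, RA had 2, 2 and 1 of these 12 genes higher and 2, 1 and 2 lower at days 5, 10 and 21. Of all genes, 5.97%, 5.11% and 5.99% were called higher and 6.25%, 5.73% and 6.07% lower. PAX6, of the neural tube, was 1 of the 2 called higher at day 5. It averaged 47.3 CPM at RA day 5 and 1.04 CPM at BMP2 day 5 (5.51 ± 0.70, adjusted p = 0.0021).

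Across the 14 libraries the members fell into groups by their pattern of log2(CPM + 1), described here by Pearson's r with no test, since libraries of a group share treatment. HOXD3 and HOXD4 had r = 0.975, HOXD10 and HOXD11 r = 0.953 and HOXD12 and HOXD13 r = 0.822, while HOXD1 and HOXD10 had r = -0.59. HOXD9 was less like either side, with r = 0.635 to HOXD8 and 0.577 to HOXD11. Outside the HOX clusters, the genes most like HOXD1 were KCNJ4 (r = 0.973), HHIP (0.969) and CHRNB4 (0.967). NR2F1 (0.982) and CNR1 (0.974) were among the genes most like HOXD3, with HOXB4 (0.983) as its closest HOX gene. NR2F1 (0.974) and FOXA1 (0.972) were among those most like HOXD4, with HOXA2 (0.989) as its closest HOX gene. HOXD8 was most like TSHZ1 (0.991), ZCCHC18 (0.979) and PTGR3 (0.974). HOXD9 was most like ADD1 (0.963), ZNF316 (0.959) and GPR161 (0.954), and its closest HOX gene, HOXB7, reached only 0.766. OBSL1 (0.978), ANKRD50 (0.963) and WWTR1 (0.96) were most like HOXD10, and ANKRD50 (0.96), OBSL1 (0.955) and ANXA6 (0.938) most like HOXD11. HOXD12 was most like LAMB3 (0.932), SYT16 (0.922) and EBF2 (0.914), and HOXD13 most like BCKDHB (0.959), MESD (0.953) and STOM (0.94), both with HOXC13 as their closest HOX gene (0.837 and 0.838).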

How the data were processed

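Total RNA of 14 NT2 libraries (7 groups of 2, as the labels give them) had been sequenced on Illumina instruments. The deposited read counts per gene were made by the authors with STAR, featureCounts and DESeq2 on hg19, per the submitters' processing notes, which give no versions or order. The RPKM values deposited by the authors beside them match the whole gene span as length within 1% in 89.0% of 5814 genes with at least 1000 counts, so introns may be included. Of the counts from 1 to 19, between 66.0% and 73.5% per library were even, and no pair of libraries was identical. Counts as deposited were fitted with edgeR 4.0.16 (R 4.3.3) in one quasi-likelihood model over all 14 libraries, with TMM scaling and filterByExpr at a minimum count of 10, which kept 19142 of 25952 genes. A call is a Benjamini-Hochberg adjusted p under 0.05 over all genes tested, and SE is the log2 fold change divided by the square root of F. Residual degrees of freedom were 7, and edgeR's moderation added 3.08. An exact permutation test of 2 against 2 libraries cannot go below p = 0.333 and was not used. Floors (3 counts) cover counting error only. The comparison of the day 21 against day 5 changes between treatments was added after seeing the data. The text names the 9 members, for each list at most 4 genes with the largest absolute log2 fold change among those called in a comparison, and for each member the 3 genes (mean CPM of 1 or more) and the HOX gene with the highest Pearson's r of log2(CPM + 1); a few genes that this would name are not reported here. Members and lists were chosen with earlier results of these data known. Alternatives used DESeq2 1.42.0, limma 3.58.1 on log2(RPKM + 1) and log2(RPKM + 0.1) with RPKM of 0.5 or more in 2 libraries, RLE scaling, other filters, robust fitting, a replicate block, the 4 libraries compared alone and leaving out each library. The fit was tested on simulated data. Exonic lengths and overlaps came from GENCODE v29 (GRCh38), and promoters from RefSeq.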

Additional observations from a re-analysis of the deposited data

Results flagged for a closer look

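The change of HOXD10 between day 5 and day 21 was called as different between the treatments by a direct test in the fit over all genes. The comparison was added after the data were seen, and its call was lost without any one of 10 libraries. HOXD10 had 33.7 and 27.5 CPM at RA day 21 and 2.14 and 0.117 CPM at RA day 5, and 19.8 and 21.3 CPM at BMP2 day 21 and 34.2 and 38.2 CPM at BMP2 day 5. The RA change minus the BMP2 change was 5.608 on the log2 scale (edgeR quasi-likelihood test with Benjamini-Hochberg adjustment, adjusted p = 0.0435), with both RA day 21 libraries above both RA day 5 libraries and both BMP2 day 21 libraries below both BMP2 day 5 libraries. Groups of 2 libraries are too small for a test of single libraries that stand apart.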

How the results depend on the processing

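Of 108 gene values (the 9 genes in 11 comparisons and in the difference of the day 21 against day 5 changes), 55 were called, 0 of those changed direction in any of 25 alternative settings, and 36 kept their call with each single library left out. In those runs a group of 1 library is assumed to vary like the others. With 1 library left out, the number of HOXD genes called over untreated cells ran from 3 to 6 at BMP2 days 5, 10 and 21, for RA over BMP2 at day 21 from 2 to 4, and for BMP2 day 21 over day 5 from 0 to 2. With only the 4 libraries compared, the counts were 2 for BMP2 day 10, 4, 1 and 7 for RA over BMP2 at days 5, 10 and 21. In limma on log2(RPKM + 1), 5 were called for RA day 21 over day 5 and 4 for BMP2 day 21 over day 5. In limma on log2(RPKM + 0.1) with no filter, 3 were called for BMP2 day 21 over untreated cells and 1 for BMP2 day 21 over day 5. The cause of these shifts was not tested. Deviations of same-numbered libraries of different groups correlated with r from -0.342 to 0.146 over 21 pairs of groups, 3 of them over 0.1 and 2 under -0.1. This cannot decide whether samples were paired, since numbers swapped between groups would give negative values. The RA day 21 samples carry other numbers in their descriptions than in their titles, and the titles were followed. With the replicate number as a block, 0 genes were called for BMP2 day 21 over day 5, and HOXD4 at BMP2 days 10 and 21 had adjusted p of 0.0543 and 0.0578. Values that changed direction were all uncalled. Over the runs with 1 library left out, HOXD11 ran from -3.04 to 1.11 at RA day 5 and from -0.043 to 2.62 at RA day 10 over untreated cells, HOXD13 from -0.12 to 0.27 at RA day 5 and from -0.10 to 1.63 at BMP2 day 10, HOXD12 from -0.65 to 0.33 at RA day 21 and HOXD1 from -1.89 to 0.19 at BMP2 day 5. For RA over BMP2, HOXD9 ran from -1.15 to 0.42 at day 5 and from -0.22 to 0.37 at day 10, and HOXD12 from -0.25 to 0.87 at day 21. For day 21 over day 5, HOXD3 ran from -0.55 to 0.11 and HOXD9 from -0.078 to 1.52 in RA, and HOXD1 from -1.36 to 0.53, HOXD3 from -0.23 to 0.85 and HOXD4 from -0.086 to 5.13 in BMP2. The HOXD4 difference of these changes ran from -4.51 to 0.68, and was 0.42 in limma on log2(RPKM + 1) and 0.47 on log2(RPKM + 0.1) with or without the filter. HOXD12 at RA day 21 over untreated cells was 0.022 in limma on log2(RPKM + 1) and 0.045 on log2(RPKM + 0.1) with or without the filter. Depth limits HOXD4 in BMP2 and untreated libraries, where 10 counts or fewer fell on each group, and HOXD8 in untreated cells, with 4 counts.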
